A study of Mus musculus with 8 samples.

Results

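The nuclear genes for the subunits of the 5 oxidative phosphorylation complexes were taken from the count table by symbol. The rule took names that begin with Nduf followed by a, b, c, s or v and a digit, the genes Sdha to Sdhd, names that begin with Uqcr or Atp5, and names from Cox4 to Cox8 followed by a letter, without pseudogenes marked -ps. It found 88 of the 49315 genes listed: 38 of complex I, 4 of complex II, 8 of complex III, 21 of complex IV and 17 of complex V. Ndufa4 and its relative Ndufa4l2 carry a complex I name but were counted with complex IV, where the Ndufa4 protein is known to sit. The rule also took Cox7a2l, which joins complexes III and IV into supercomplexes, and Atp5s, which is not regarded as a subunit of the synthase itself. It missed the complex I acyl carrier Ndufab1, the complex III cytochrome Cyc1, Usmg5 of complex V and the synthase inhibitor Atpif1. After a filter on low counts 82 members entered the test, 35 of complex I, 4 of complex II, 8 of complex III, 18 of complex IV and 17 of complex V.

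RNA was sequenced from hearts of C57BL/6 mouse embryos at embryonic day 9.5, in 4 female and 4 male libraries, named here Female 1 to 4 and Male 1 to 4. The labels name no transgene, mutant allele or treatment for either sex. Sex was assigned from the presence of Sry, which sits on chromosome Y and starts testis development, in tissue from the rest of each embryo. Nothing in the labels says whether a library came from a single heart or a pool, or which embryos were littermates, so p-values measure only the spread between these libraries, which may be partly technical.

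Total counts ran from 20105913 to 51134291 per library, and the members held 2.39% (Female 4) to 3.11% (Male 2) of them. Male 2 stood apart on the first principal component of all genes, at -71.6 against -21.6 to 45.0 in the other 7 libraries, with 54.6% of the variance. All 8 markers of heart muscle reached 1 CPM (counts scaled to a common library size) in each library, with a summed level from 35288 CPM in Female 4 to 60139 CPM in Male 2. All 6 endocardial and all 5 primitive blood markers did so too, at summed levels of 324 to 451 CPM and 4305 to 11308 CPM. Markers of skeletal muscle summed to at most 0.181 CPM, and each of Myod1, Myog, Myf5 and Pax7 was at 0 in some library. Foregut markers summed to 39.0 CPM in Female 1 and 21.5 CPM in Male 2 against 3.80 to 13.1 CPM in the other 6, and hepatic and yolk sac markers to 68.5 and 26.6 CPM against 0.622 to 14.3 CPM. The part of such tissue in the results below was not tested.

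Oxidative phosphorylation passes electrons from NADH (complex I) and succinate (complex II) through complex III to oxygen at complex IV, and complex V, the ATP synthase, uses the proton gradient built on the way. Complexes I, III, IV and V combine nuclear subunits with a few encoded by the mitochondrial genome, whereas complex II is wholly nuclear and is also an enzyme of the citric acid cycle. Complex IV has paralogous nuclear subunits, among them isoforms that rise in heart and skeletal muscle as these tissues mature, and the nuclear factors NRF1, GABPA and YY1 are known to bind many promoters of these genes.

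All 5 complexes were well represented in the heart tube. Levels of different genes were compared as CPM per kb of the exon length given in the deposited tables, as means ± SD over the 8 libraries. The median over tested members was 167 CPM per kb, against 3.50 over all 16377 genes tested, and it was 125 in complex I, 98.7 in complex II, 215 in complex III, 239 in complex IV and 250 in complex V. By this length the highest level of all was that of Cox8a, a small ubiquitous subunit of complex IV, at 901 ± 124 CPM per kb, followed by its complex IV partner Cox6a1 at 699 ± 101.

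Within complex I the highest levels were those of the accessory subunits Ndufb9 (373 ± 67.7 CPM per kb) and Ndufs6 (364 ± 143). Its lowest were Ndufs1, the large core subunit that carries iron-sulfur clusters (19.3 ± 3.65 CPM per kb), and the accessory Ndufb2 (24.5 ± 9.55). In complex II the order was Sdhd, a membrane anchor (182 ± 30.2), the iron-sulfur subunit Sdhb (112 ± 6.65), the flavoprotein Sdha (85.7 ± 9.61) and the second anchor Sdhc (70.8 ± 2.80). Complex III ran from the core protein Uqcrc2 (76.5 ± 19.4) and the Rieske iron-sulfur protein Uqcrfs1 (126 ± 24.0) to the small subunits Uqcr11 (430 ± 171) and Uqcr10 (496 ± 134). Complex V ran from Atp5s (6.48 ± 0.489) and Atp5l (42.1 ± 7.11) to the catalytic subunit Atp5b (626 ± 30.9) and the small proteolipid Atp5mpl (668 ± 178). The lowest of complex IV were Ndufa4l2 (4.72 ± 1.84) and Cox8b (5.83 ± 3.03). The order depends on the length used. Per kb of the main transcript Cox8a stood at 893 CPM per kb, below Cox4i1 (1396), Atp5g3 (1386), Atp5b, Atp5o (1083) and Atp5e (1043). By that length Atp5b stood at 1385, Atp5l at 498 and Ndufs1 at 58.6 CPM per kb, so neighbours in these orders whose SDs overlap were not told apart.

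**Figure D1:**
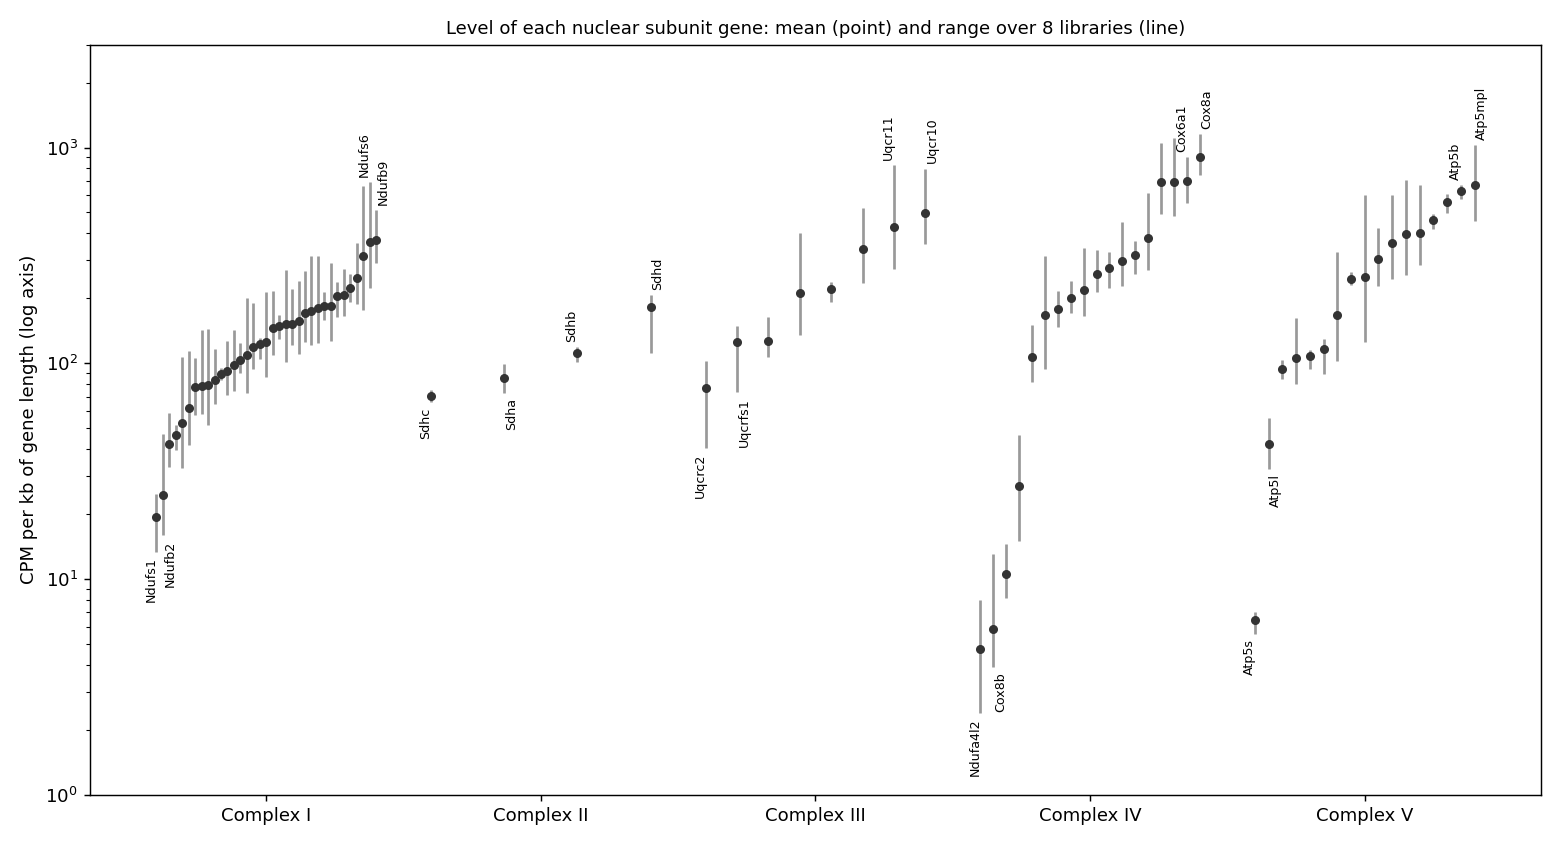
Mean level (points) and range over 8 libraries (lines) of the 82 tested members, in CPM per kb of deposited exon length on a log axis, grouped by complex and ordered by mean. The 2 highest and 2 lowest genes of each complex are named, and Cox8a is the highest by this length at 901 CPM per kb.

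Of the 6 members below the filter, none had more than 17 counts in any library. They were the complex IV genes Cox6c2 (46 counts over all 8 libraries), Cox7b2 (18) and Cox8c (1), and the complex I copies Ndufa11b (22), Ndufb4c (32) and Ndufs6b (45). Cox7b2 and Cox8c are known from the testis. At this depth these levels are too low for a comparison between groups.

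The muscle isoforms of complex IV were unequally present in the heart tube. Cox7a1, the heart and muscle form of subunit 7a, stood beside the ubiquitous Cox7a2, Cox6a2 beside Cox6a1, and Cox8b beside Cox8a. Cox7a1 lies at chr7:30184144-30186078 and Cox7a2 at chr9:79755361-79759878, Cox6a2 at chr7:128205435-128206387 and Cox6a1 at chr5:115345642-115348981, and Cox8b at chr7:140898945-140900446 and Cox8a at chr19:7215158-7217616 (GRCm38, from the deposited tables).

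The bases before the start sites of these genes are shown because the members of a pair stand at unlike levels. They are from RefSeq on GRCm38.p6, 5′ to 3′ on the strand of the gene, and taken from the 250 bases before the start, without bases that GENCODE M21 annotates as exons of coding genes. Capitals mark CGCANGCG (core of the NRF1 site) or CCGGAAG (core of the site of GABPA and other ETS factors) on either strand. AAGATGG (YY1 core) was also searched and is in none of them. The table used holds no entry for Cox6a2.
Cox6a1, chr5:115348982-115349208, minus strand: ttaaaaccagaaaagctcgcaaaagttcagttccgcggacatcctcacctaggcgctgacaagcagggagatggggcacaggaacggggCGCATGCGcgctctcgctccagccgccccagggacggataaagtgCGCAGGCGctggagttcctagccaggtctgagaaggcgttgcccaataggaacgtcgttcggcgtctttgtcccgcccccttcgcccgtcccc
Cox7a2, chr9:79759879-79760103, minus strand: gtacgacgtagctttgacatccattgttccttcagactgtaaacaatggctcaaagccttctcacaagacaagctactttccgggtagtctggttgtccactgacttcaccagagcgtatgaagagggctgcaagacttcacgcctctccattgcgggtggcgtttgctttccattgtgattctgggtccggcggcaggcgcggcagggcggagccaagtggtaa
Cox7a1, chr7:30183921-30184143, plus strand: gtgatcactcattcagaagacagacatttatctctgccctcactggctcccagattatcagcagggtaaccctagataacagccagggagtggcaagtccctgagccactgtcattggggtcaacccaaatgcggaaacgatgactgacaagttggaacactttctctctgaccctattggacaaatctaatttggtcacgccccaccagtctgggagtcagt
Cox8a, chr19:7217617-7217866, minus strand: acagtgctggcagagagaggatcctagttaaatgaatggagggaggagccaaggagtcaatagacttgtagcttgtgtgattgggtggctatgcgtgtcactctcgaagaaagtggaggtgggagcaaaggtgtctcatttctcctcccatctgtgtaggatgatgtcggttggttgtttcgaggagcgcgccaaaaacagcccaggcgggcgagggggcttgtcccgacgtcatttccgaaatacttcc
Cox8b, chr7:140900447-140900696, minus strand: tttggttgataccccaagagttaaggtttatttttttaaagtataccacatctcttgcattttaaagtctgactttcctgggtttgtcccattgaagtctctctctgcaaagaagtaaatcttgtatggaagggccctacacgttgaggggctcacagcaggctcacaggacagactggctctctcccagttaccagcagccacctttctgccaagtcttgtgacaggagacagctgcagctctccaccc

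Cox6a1 held 2 matches to the NRF1 core, 161 and 116 bases before its start, and an ETS core 16 bases before it, in the stretch annotated as exon and left out above. Cox8a held an ETS core across its start, 5 bases before it, and another 32 bases after it. Cox7a2, Cox7a1 and Cox8b held none of the 3 letter patterns. The ubiquitous Cox7a2 was thus like the muscle isoforms Cox7a1 and Cox8b in this. So few promoters, without that of Cox6a2, cannot show whether the patterns divide ubiquitous from muscle isoforms. The stretches shown of Cox8b and Cox7a1 held 47.2% and 49.8% G and C, those of Cox8a, Cox7a2 and Cox6a1 52.8%, 53.8% and 62.1%.

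Cox7a1 was read at 92.7, 92.2, 84.8 and 50.5 CPM in Female 1 to 4 and at 72.2, 168, 63.4 and 89.7 CPM in Male 1 to 4. Cox7a2 was read at 360.4, 374, 369 and 254 CPM in the females and at 287, 579, 293 and 353 CPM in the males. Both genes were highest in Male 2 and lowest in Female 4, and the sexes overlapped. Per kb, Cox7a1 gave 29.9% ± 2.43 (SD, n = 8) of the sum of the pair, from 25.9% in Female 4 to 33.9% in Male 2. The range of this share was narrower than that of Cox7a1 itself, which varied 3.33-fold between libraries.

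Cox6a2 was read at 130, 143, 147 and 112 CPM in Female 1 to 4 and at 135, 233, 133 and 162 CPM in Male 1 to 4. Cox6a1 was read at 499.7, 462, 526 and 389 CPM in the females and at 459.7, 631, 449 and 508 CPM in the males. The sexes overlapped for both genes, with Male 2 above all other libraries. Cox6a2 gave 23.7% ± 1.91 of the pair per kb, from 21.1% to 27.6%.

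Cox8b, the third muscle form, was read from few counts. It was read at 2.14, 1.41, 1.67 and 1.52 CPM in the females and at 1.46, 4.72, 1.94 and 1.93 CPM in the males, from as few as 33 counts in a library. Cox8a was read at 407.7 to 521 CPM in the females and 450.3 to 627 CPM in the males. Cox8b gave 0.626% ± 0.224 of the pair per kb. The 3 muscle isoforms thus lay at unlike shares of their pairs, with Cox7a1 and Cox6a2 far above Cox8b in every library.

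The second isoforms that are not named for muscle were minor. Cox4i2, a form known from lung and other oxygen-sensing tissues, was read at 11.8 to 25.4 CPM in females and 13.6 to 36.8 CPM in males, beside 765 to 1157 CPM and 895 to 1628 CPM of the ubiquitous Cox4i1. It gave 3.70% ± 0.615 of the pair per kb, or 1.996% with main transcript lengths. Cox6b2, a form known from the testis, gave 1.54% ± 0.255 beside Cox6b1, or 2.51% with main transcript lengths. Ndufa4l2, known as a hypoxia-induced relative of Ndufa4, gave 1.66% ± 0.539, or 0.760%. Cox7b2 had too few counts for a share beside the X-linked Cox7b.

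None of the 6 shares passed an exact 2-sided permutation test between the sexes over the 70 divisions of the libraries. The smallest p this test can give is 0.0286. A single share with fully separated sexes could therefore not pass after adjustment over the 6 families, and the adjusted test cannot show that the shares are alike. Before adjustment the smallest p of the 6 was 0.114 (exact permutation), for Cox6a2. The share of Cox6a2 was 22.7% ± 1.28 in the female and 24.8% ± 1.99 in the male libraries (SD, n = 4), a difference of 2.09 percentage points (exact permutation p = 0.114, Benjamini-Hochberg adjusted p = 0.457 over the 6 families). That of Cox7a1 was 29.1% ± 2.31 and 30.8% ± 2.55, a difference of 1.71 points (exact permutation p = 0.371). The differences of Cox4i2, Ndufa4l2, Cox6b2 and Cox8b were -0.34, -0.38, 0.19 and 0.16 points, with an adjusted p of 0.457 (exact permutation) for each. In all 6 families the values of the sexes overlapped. Without Male 2 the difference was 1.15 points for Cox6a2, 0.68 for Cox7a1, 0.014 for Cox8b, -0.58 for Cox4i2 and 0.30 for Cox6b2. Without Female 4 it was 0.67 for Cox7a1, -0.65 for Cox4i2 and -0.64 for Ndufa4l2.

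**Figure D2:**
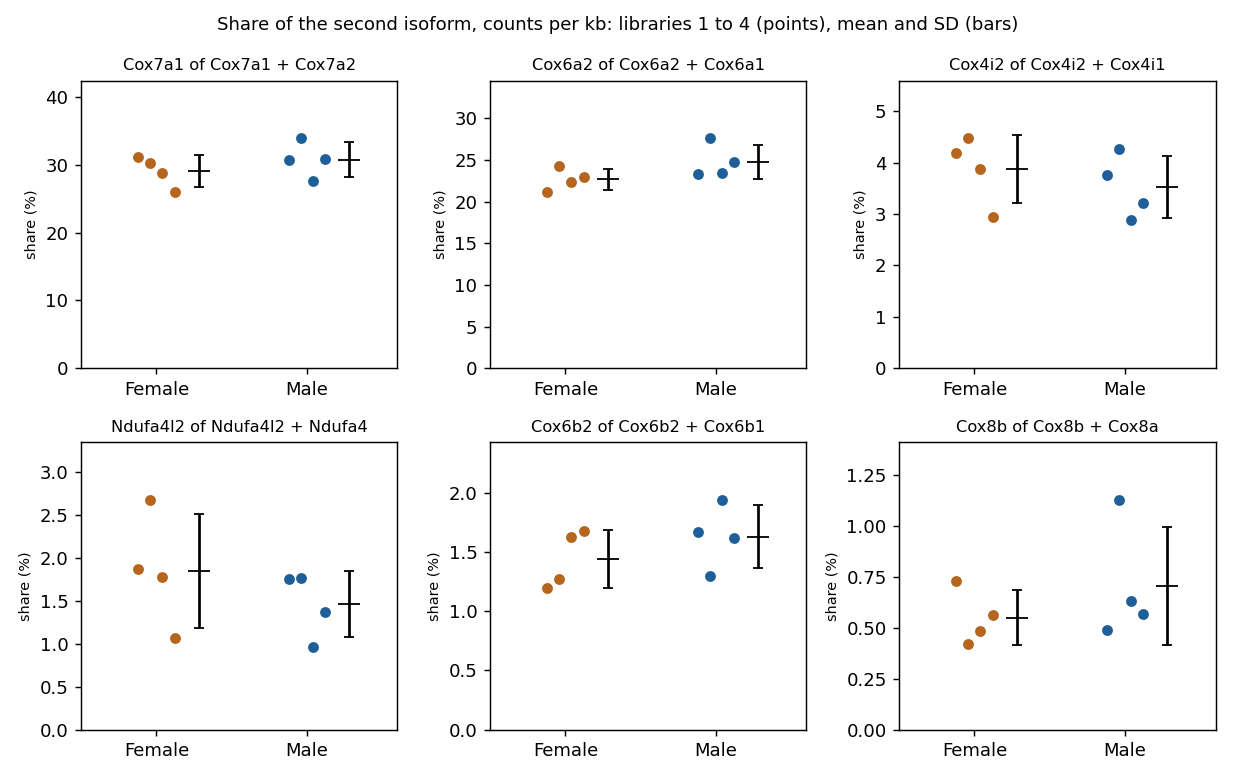
Share of the second isoform in the sum of its pair, in percent of counts per kb, for 4 female and 4 male libraries (points in the order of replicates 1 to 4), with mean and SD (bars). Cox7a1 and Cox6a2 lie between 21.1% and 33.9% and the 4 other isoforms at or below 4.47%, and the sexes overlap in each panel.

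The membrane ring of the ATP synthase is built from subunit c, which 3 genes encode with different targeting sequences and the same mature protein. Per kb of main transcript, Atp5g3 gave 79.4% ± 1.26 of the sum of the 3 (SD, n = 8), Atp5g2 14.2% ± 1.29 and Atp5g1 6.31% ± 1.43. With the deposited lengths the shares were 68.3%, 16.1% and 15.6%, so the order of Atp5g2 and Atp5g1 rests on the length. Atp5g1 reached 9.73% in Male 2 against 5.24% to 6.42% in the other 7 libraries.

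The members varied together from library to library. The deviation of a gene is its log2 CPM minus its mean over the 8 libraries. Its median over the 82 members was 0.04, 0.05, 0.08 and -0.35 in Female 1 to 4 and -0.19, 0.51, -0.16 and 0.01 in Male 1 to 4. Male 2 was thus the highest library and Female 4 the lowest, and 61 of 82 members (74.4%) had both their highest value in Male 2 and their lowest in Female 4, against 16.8% of all genes tested. The highest library exceeded the lowest by a median factor of 1.88 over the members, from 1.14 for Sdhc to 4.81 for Atp5e.

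Genes with short transcripts shared this pattern. The median length of the main transcript was 823.5 bases for tested members and 2787 for all genes tested. Over the 1815 tested genes with a main transcript under 1000 bases the median deviation was 0.47 in Male 2 and -0.34 in Female 4, and 39.1% had the highest value in Male 2 and the lowest in Female 4. For the 50 members under that length the same numbers were 0.58, -0.38 and 84.0%. Cytosolic ribosomal proteins, at 0.52 and -0.38, moved as far as the members, and 74.0% of 96 showed that order, while 78 mitochondrial ribosomal proteins were at 0.30 and -0.22. The most abundant of these lists, Rpl8 and Rps2 of the cytosolic and Mrpl12 and Mrpl42 of the mitochondrial ribosome, differed by 0.75, 0.54, 0.77 and 0.28 between Male 2 and the mean of the other 7 libraries in log2 CPM. The slope of the deviation on log2 gene length over all genes was lowest in Male 2 (-0.10) and highest in Female 4 (0.10), so that short genes were high in the first and low in the second. The summed heart muscle markers were highest in Male 2 and lowest in Female 4, and 5 of the 8 (Tnnt2, Myl7, Myl4, Myh6 and Nkx2-5) had that order too. The remaining markers did not. Myh7 was highest in Male 2 but lowest in Female 1, and Ttn was highest in Male 1 and lowest in Female 2. Actc1 was highest in Female 2 and lowest in Female 1, and lay lower in Male 2 (11070 CPM) than in Female 4 (11573 CPM). The summed endocardial markers ran the other way, from 324 CPM in Male 2 to 451 CPM in Female 4, and neural crest markers, of which Foxd3 was at 0 in some library, summed to 20.3 CPM in Male 2 against 7.66 CPM in Female 4 and 8.18 to 13.2 CPM in the other 6. Fewer muscle cells and less RNA per cell cannot be told apart in these bulk samples, and the part of RNA quality, of library preparation and of heart muscle, endocardial or neural crest content in this pattern was not tested.

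Complexes I and IV kept nearly the same ratio in every library. With each complex taken as the mean deviation of its tested members, the ratio of complex I to complex IV, relative to its mean, ran from 0.983 (Female 2) to 1.04 (Female 4). Complex III over complex V ran from 0.939 to 1.04, and complex IV over complex V from 0.907 to 1.14. The ratios of complex I to complex III, from 0.907 in Female 4 to 1.203 in Male 2, and of complex III to complex IV, from 0.821 in Male 2 to 1.145 in Female 4, were less even. Those with complex II were the widest. The ratio of complex II to complex IV was 0.560 in Male 2 and 1.43 in Female 4, and complex I over complex II ran from 0.727 in Female 4 to 1.76 in Male 2. The median deviations of complex II were 0.11 in Female 4 and -0.19 in Male 2, of the opposite sign to those of complexes I, III, IV and V, which lay at -0.38 to -0.33 and at 0.43 to 0.57. The median main transcript of complex II was 2066 bases, against 652 to 955 in the other 4 complexes.

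**Figure D3:**
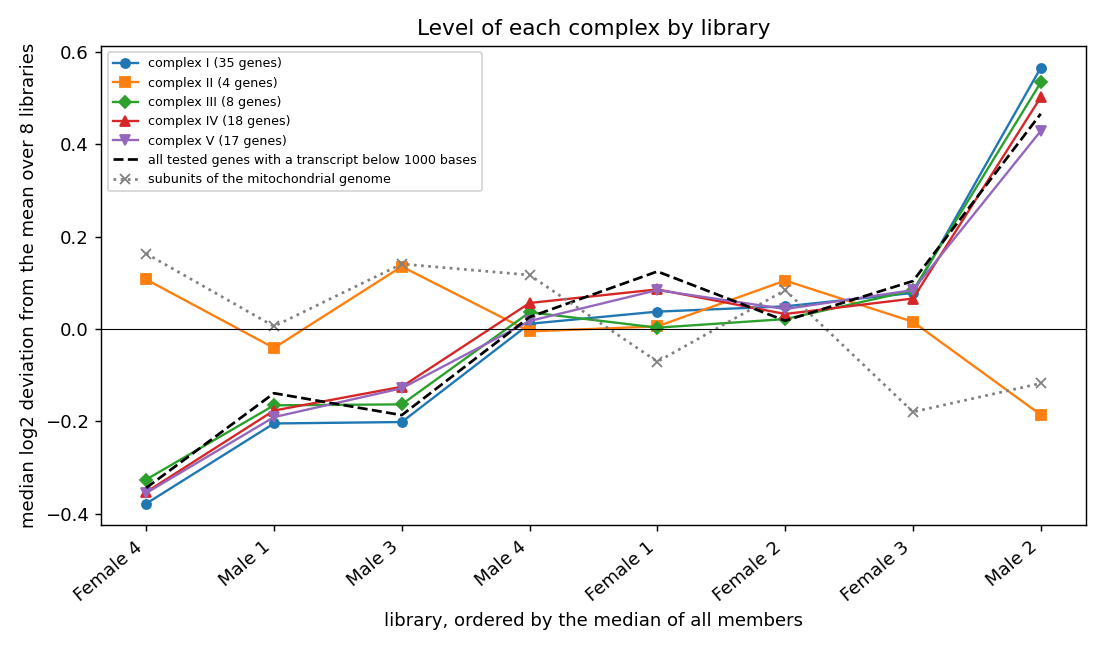
Median log2 deviation of the members of each complex by library, ordered by the median of all members, with the same for all tested genes whose main transcript is under 1000 bases (dashed) and for subunits of the mitochondrial genome (dotted). Complexes I, III, IV and V lie at -0.38 to -0.33 in Female 4 and at 0.43 to 0.57 in Male 2, near the dashed line, and complex II at 0.11 and -0.19.

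How much of the variation was shared within a complex differed between complexes. The median SD of log2 CPM over libraries was 0.28 for complex I and fell by construction when the mean of the complex was subtracted, to 0.15, and for complex IV it went from 0.29 to 0.13. Complex III went from 0.35 to 0.27 and complex V from 0.24 to 0.21, so their members shared less of their spread, and complex II from 0.12 to 0.097. Over all genes tested the median SD was 0.24 with and without such a step. Without Male 2 the median SD of the members was 0.17, against 0.18 for all genes tested, and 0.087 after the step.

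The spread was uneven between members of a complex. Atp5e, the small epsilon subunit of F1, the catalytic part of the synthase (chr2:174461072-174464105), was read at 466, 389, 431 and 220.0 CPM in Female 1 to 4 and at 288, 1059, 287 and 374 CPM in Male 1 to 4. Male 2 stood 3.11-fold above the mean of the other 7 libraries, taken on the log scale, and the remaining males lay within the range of the females. The larger F1 subunits Atp5b (2442 to 2828 CPM in females and 2525 to 2762 in males), Atp5a1 (1646 to 1898 and 1558 to 1903) and Atp5c1 (442 to 481 and 448 to 506) were steadier, with an SD of 0.07, 0.10 and 0.06 in log2 CPM against 0.68 for Atp5e. These 5 F1 genes, with Atp5d at 0.38, encode subunits that F1 contains in fixed numbers.

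Members of complex III also moved unevenly. Uqcr11, a small subunit, was read at 262, 268, 278 and 175 CPM in the females and at 211, 532, 212 and 268 CPM in the males. Uqcrc2, a large core protein (chr7:120635176-120659524), was read at 159, 207, 187 and 260.5 CPM in the females and at 210.5, 103, 246 and 189 CPM in the males. Uqcrfs1 (chr13:30540308-30545362) was read at 169, 169, 166 and 203 CPM and at 196, 99.8, 199 and 172 CPM. Male 2 was the highest library for Uqcr11 and the lowest for Uqcrc2 and Uqcrfs1, while Female 4 was the lowest for Uqcr11 and the highest for the other 2. The difference of Male 2 from the mean of the other 7 libraries in log2 CPM was 1.17 for Uqcr11, -0.99 for Uqcrc2 and -0.86 for Uqcrfs1. This did not divide small subunits from large ones. Uqcrc1, also a core protein and named after its values were seen, was highest in Male 2, at a difference of 0.45. The small Uqcrb differed by 0.04. Of the 8 members of complex III, 5 were highest in Male 2 and 2 were lowest there.

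Sdhd of complex II (chr9:50596357-50603812) was read at 222, 244, 222 and 255 CPM in the females and at 230.5, 138, 253 and 224 CPM in the males, with Male 2 lowest at a difference of -0.77. Its partners Sdhc and Sdhb differed by -0.05 and -0.17 in Male 2. In complex I the difference reached 1.37 for the accessory Ndufa2 and 1.26 for Ndufb7, both named after their values were seen, and -0.59 for the core subunit Ndufs1. By the SD of log2 CPM the most even gene of complex I was Ndufa9 (0.06), at 176 to 200.2 CPM. In complex IV it was Cox7c (0.16), level with Cox7a2l, and the least even was Ndufa4l2 (0.59), at 2.30 to 7.64 CPM, with its highest value in Female 2.

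Over all 82 members the difference of Male 2 from the other 7 libraries was below 0 in 16, between 0 and 1 in 49 and above 1 in 17. The median main transcript of these classes was 1481, 738 and 572 bases, and their median G and C content 48.6%, 52.2% and 54.6%. Across members, which are not independent replicates, Spearman's rho of the difference was -0.30 with transcript length, 0.38 with G and C content and -0.92 with the deviation in Female 4 (n = 82 genes, values of the same 8 libraries). Over all 16341 tested genes with a transcript the first 2 values were -0.22 and 0.12.

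**Figure D4:**
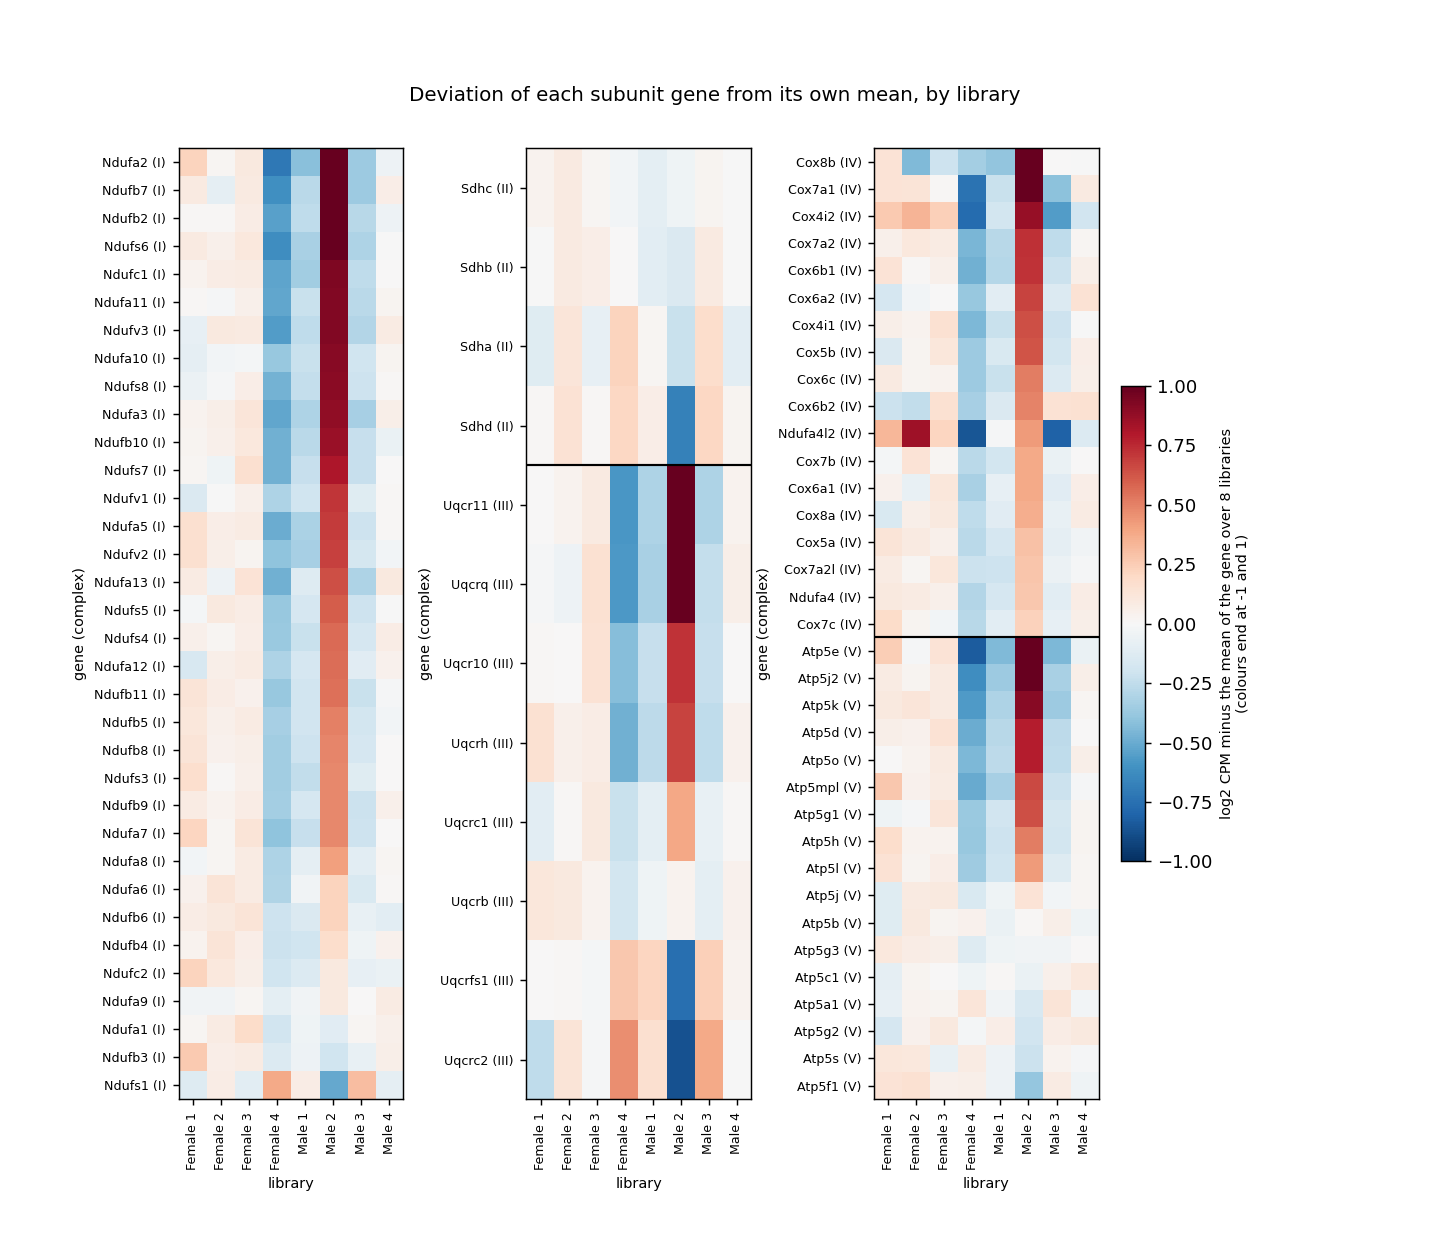
Deviation of log2 CPM from the mean of each gene over 8 libraries for tested members, by complex and ordered by the difference of Male 2 from the other 7 libraries, with colours ending at -1 and 1. The Male 2 column is high and the Female 4 column low for most genes, and both turn for Ndufs1, Sdhd, Uqcrfs1 and Uqcrc2.

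The upstream bases of Atp5e, the member with the largest positive difference in Male 2, and of Sdhd, the lowest of complex II, are shown in the same form as above.
Atp5e, chr2:174464106-174464351, minus strand: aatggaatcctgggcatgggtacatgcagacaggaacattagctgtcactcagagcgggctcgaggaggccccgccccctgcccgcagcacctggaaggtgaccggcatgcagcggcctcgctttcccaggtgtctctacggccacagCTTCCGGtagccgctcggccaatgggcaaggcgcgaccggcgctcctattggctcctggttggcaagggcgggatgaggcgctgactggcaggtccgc
Sdhd, chr9:50603850-50603909, minus strand: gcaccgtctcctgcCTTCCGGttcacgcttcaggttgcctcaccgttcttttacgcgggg
Sdhd shares its upstream region with Timm8b, a gene of mitochondrial protein import on the opposite strand that begins at the 5′ edge of the 60 bases shown. Its ETS core lies 46 bases before the start, and an NRF1 core lies 78 bases before it, inside Timm8b. Atp5e held 1 ETS core, 102 bases before the start. Uqcrfs1, which lay lower than Sdhd in Male 2, held none of the 3 letter patterns in its promoter, and the table holds no entry for Uqcrc2. Patterns and the difference in Male 2 were not compared over the members.

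RefSeq promoters, 250 bases before to 50 bases after the start, were found for 66 of the 88 members and 65 of those tested. The NRF1 core was in 23 of the 65 (35.4%), against 8.42% of all 27025 promoters of the same length. The ETS core was in 15 (23.1%, against 9.12%) and the YY1 core in 9 (13.8%, against 6.48%). At least 1 of the 3 was in 40 (61.5%, against 21.3%). By complex the NRF1 core was in 10 of 31 promoters of complex I, 2 of 3 of complex II, 3 of 5 of complex III, 1 of 13 of complex IV and 7 of 13 of complex V, and the YY1 core in 7 of 31 of complex I. The 65 members had passed the filter on low counts, whereas the 27025 promoters were not chosen by expression or by G and C content. Matches are letters in a window, not binding sites, and these shares were not tested.

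Other genes of the pathway followed the members in part. Among 51 assembly factors, which build the complexes and are not part of them, 49 were tested, with a median deviation of 0.11 in Male 2 and -0.10 in Female 4 and a median level of 14.2 CPM per kb against 167 for the members. Uqcc2, needed for making cytochrome b, differed by 1.16 in Male 2 and Timmdc1, which inserts complex I parts into the membrane, by 0.48. Ndufaf4 of complex I (-0.14), Uqcc1 (-0.18) and Atpaf2, a chaperone of F1 (-0.51), lay on the other side. Sdhaf2, which attaches flavin to Sdha, and Coa5 of complex IV differed by 0.19 and 0.15, and Sdhaf4, Coa3 and the F1 factor Fmc1 by 0.24, 0.58 and 0.71. Cycs, the soluble electron carrier cytochrome c, was steady at 346 to 408 CPM. The ATP carrier Slc25a4 was read at 1772 to 2190 CPM and the phosphate carrier Slc25a3 at 853 to 1054 CPM, with Male 2 inside the range of the females for the first and above it for the second.

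Subunits encoded by the mitochondrial genome were not highest in the library where the nuclear members were. Their summed level ran from 8011 CPM in Male 2 to 15948 CPM in Female 4, and the members summed to 36045 and 22349 CPM there. The ratio of the nuclear to the mitochondrial sum was therefore 4.50 in Male 2, 1.40 in Female 4 and 1.63 to 2.73 in the other 6 libraries. The sums are carried by a few genes. The median deviation of the 12 tested mitochondrial subunits was -0.12 in Male 2 and 0.16 in Female 4, and it was lowest in Female 3, at -0.18. Mt-Co1, the catalytic subunit of complex IV, was read at 1895, 3149, 2482 and 5004 CPM in the females and at 3306, 664, 4171 and 2647 CPM in the males, and mt-Nd1 of complex I at 2542 to 3658 and 2367 to 3708 CPM. Mt-Nd3, named after its values were seen, was highest in Male 2, at 90.7 CPM against 28.7 to 61.7 elsewhere. Some mitochondrial genes had next to no counts, with mt-Atp6 at 1.08 to 1.65 CPM and mt-Atp8 at 35 counts in all, and the handling of multi-mapping reads is not known here.

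The regulators of the pathway showed no common direction in these libraries. Nrf1 was read at 47.6 to 53.2 CPM in females and 47.7 to 55.0 in males, Gabpa at 41.9 to 54.9 and 29.5 to 50.7, and Yy1 at 68.8 to 82.5 and 65.5 to 81.6. The mitochondrial RNA-binding protein Lrpprc stood at 134 ± 7.62 and 121 ± 12.03 CPM in the sexes (SD, n = 4, female first) and the coactivator Pprc1 at 75.3 ± 2.86 and 79.5 ± 4.96. Of the 12 regulators 5 had higher and 7 lower values in males and 0 were called. Tfam, which packs and transcribes mitochondrial DNA, had an unadjusted p under 0.05 in edgeR, at a log2 fold change of -0.16, and did not pass after adjustment.

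The only contrast of the study was male against female, and no member was called in it. Of 82 members tested, 0 had an adjusted p below 0.05 in edgeR's quasi-likelihood test and 0 had an unadjusted p below 0.05, against 6 of all 16377 genes called (0.0366%) and 367 with an unadjusted p below 0.05. DESeq2 and limma on the authors' normalized values called 0 members too. With the length trend of each library as a covariate 0 were called and 3 had an unadjusted p below 0.05 in edgeR, Cox6a2, Cox6b2 and Atp5f1. For 62 members the value was higher in males and for 20 lower, against 8666 and 7711 of all 16377 genes tested. Among the 1815 tested genes with a main transcript under 1000 bases it was higher in 1272 and lower in 543. The median log2 fold change of the members was 0.12, against 0.01 over all genes tested and 0.12 over those short genes. No member had sexes that did not overlap, against 2.25% of all genes tested. At so small a share few of 82 members would do so, and the 0 does not set the members apart. The same holds for the 0 members with an unadjusted p below 0.05 in the main edgeR fit.

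That direction rested on Male 2. Without it 12 members were higher and 70 lower in males, with a median of -0.07, and 54 members went from higher to lower. Without Female 4 the median was 0.02. It was -0.05, with 11 members higher, without Female 1 and Male 2 together, and 0.03 with the length trend of each library as a covariate. With all libraries, complex I had 28 higher and 7 lower (median 0.13), complex III 5 and 3 (0.13), complex IV 17 and 1 (0.13) and complex V 12 and 5 (0.07). Each of these medians turned sign without Male 2, to -0.08 in complex I, -0.06 in complex III, -0.05 in complex IV and -0.08 in complex V. All 4 members of complex II had lower values in males (median -0.07). Without Male 2 this median was -0.03, with Sdha, Sdhb, Sdhc and Sdhd at -0.0073, -0.045, -0.054 and 0.0022. No gene of the other lists or of the heart muscle, endocardial and primitive blood markers was called either. Heart muscle markers had 7 higher and 1 lower values in males (median 0.24), and 3 had an unadjusted p below 0.05 in edgeR. Endocardial markers had 2 and 4 (-0.0056) and primitive blood markers 4 and 1 (0.07). The part of muscle content in the direction of the members was not tested. Assembly factors had 28 higher and 21 lower values in males (median 0.01), mitochondrial ribosomal proteins 45 and 33 (0.03), cytosolic ribosomal proteins 64 and 32 (0.04), subunits of the mitochondrial genome 9 and 3 of 12 tested (0.07), and carriers and related proteins 3 and 6 (-0.05). Cyc1, Usmg5, Ndufab1 and Atpif1, the subunits and the inhibitor that the rule missed, lay at -0.07, 0.07, -0.03 and 0.17.

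Among members with higher values in males, the 5 of smallest p did not pass (adjusted p = 0.9995 for each, edgeR). Cox6b2 was read at 9.88, 9.67, 12.7 and 9.09 CPM in the females and at 10.3, 16.2, 12.6 and 12.7 CPM in the males, a log2 fold change of 0.33 ± 0.16 (SE, unadjusted p = 0.0654, edgeR), and all males lay above 3 of the 4 females. Cox6a2 had a log2 fold change of 0.32 ± 0.18, and 0.11 without Male 2. Cox8b had 0.59 ± 0.36, and 0.08 without Male 2. Ndufa10, an accessory subunit of complex I, was at 0.33 ± 0.25, and Ndufv1, the core subunit that binds NADH, at 0.25 ± 0.20. Without Male 2 these were -0.0064 and -0.0036, and Cox6b2 was at 0.21.

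Members with lower values in males did not pass either (adjusted p = 0.9995 for each one named here, edgeR). Atp5f1, of the peripheral stalk of the synthase, was read at 525, 531, 494 and 498 CPM in the females and at 461, 366, 505 and 465 CPM in the males, a log2 fold change of -0.19 ± 0.11 (SE), and -0.10 without Male 2. Male 3 lay within the range of the females and the remaining males below it. The accessory complex I subunits Ndufb3 and Ndufc2 were at -0.14 ± 0.10 and -0.10 ± 0.11, and Atp5s at -0.12 ± 0.10.

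Of the members 3 are X-linked and none is on chromosome Y. Cox7b had a log2 fold change of 0.08 ± 0.14, Ndufb11 of 0.09 ± 0.19 and Ndufa1 of -0.05 ± 0.09 (SE, adjusted p = 0.9995 each, edgeR), and their sexes overlapped. Ndufa1, the small complex I subunit, was read at 62.7, 65.4, 70.1 and 54.2 CPM in the females and at 60.0, 57.1, 62.7 and 64.1 CPM in the males.

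**Figure D5:**
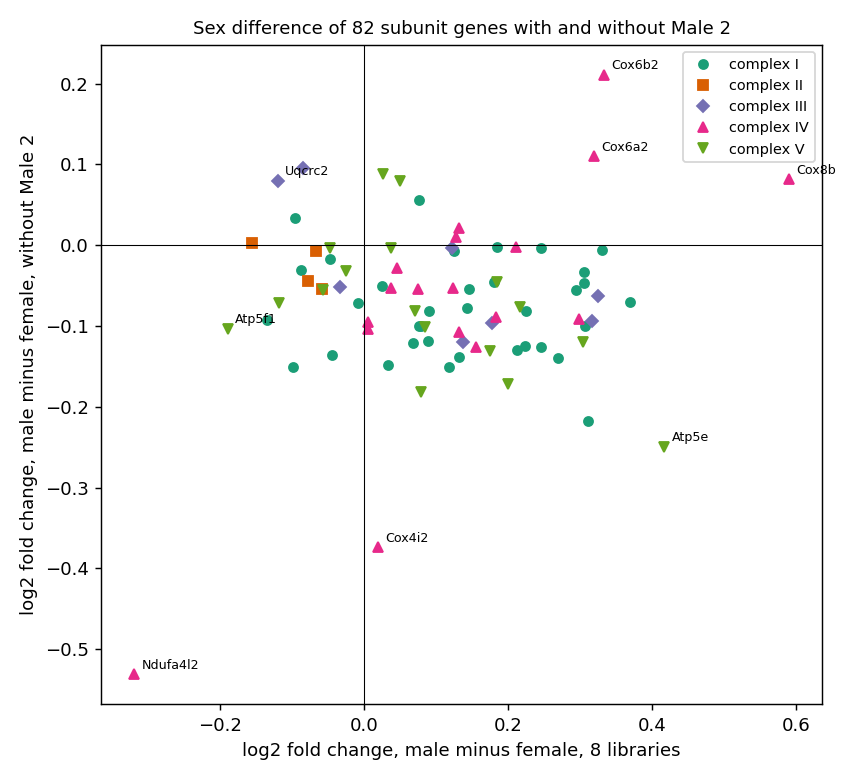
Log2 fold change, male minus female, of the 82 tested members with all 8 libraries (horizontal axis) and without Male 2 (vertical axis), by complex. Most points lie right of 0 and below 0, since 54 members were higher in males with Male 2 and lower without it.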

How the data were processed

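Gene expression was measured by RNA sequencing of 4 female and 4 male libraries of mouse embryonic heart at embryonic day 9.5. The authors deposited raw counts per gene for 49315 genes, in 1 table per library with positions and exon lengths in bases, and a table for the whole series with the same values. The submitters' processing notes list GRCm38 and the tools STAR 2.5.2b, Trimmomatic 0.36 and Subread 1.5.2 with featureCounts. Annotation release, strand setting and the handling of multi-mapping reads: not given in the sources used here. Members with near-identical copies elsewhere in the genome are uncertain to that extent. The 6 pseudogenes left out had at most 109 counts in a library. A further table deposited by the authors holds a normalized signal for 16460 genes and served as an alternative.

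The whole count table was fitted with edgeR 4.0.16 in R 4.3.3 (TMM factors, genes kept by filterByExpr at a minimum count of 10, 2-sided quasi-likelihood test with the robust option, male minus female, 8 libraries, no covariate), with Benjamini-Hochberg adjustment over 16377 genes and a threshold of 0.05. The fit was tested on simulated counts with 200 changed genes. CPM used TMM factors, and log2 CPM a prior count of 2. Isoform shares were compared by exact permutation (smallest possible p 0.0286) in Python 3.11.15 with numpy 2.4.6. Main transcripts, their lengths and G and C content are from GENCODE M21, where 69 of 88 members had the deposited position, and promoters from RefSeq on GRCm38.p6.

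The members and lists were chosen with earlier results of these data known. Named were the paralogue families, the 2 highest and 2 lowest members per complex by CPM per kb, the 5 smallest p in each direction, X-linked members, members below the filter, the most and least variable member per complex, and the 2 most abundant genes of each list. One named gene is not reported here. Other genes are marked as named after their values were seen. Alternatives were RLE factors, library size alone, 2 other filters, the replicate number as a block, length and GC trends as covariates (the last chosen after seeing the data), DESeq2 1.42.0, limma 3.58.1 on log2 of the authors' normalized values plus 1, leaving out each library, leaving out Female 1 and Male 2 together, and for shares no length scaling or main transcript lengths (the last also chosen after seeing the data).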

Additional observations from a re-analysis of the deposited data

Results flagged for a closer look

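Within the 4 female libraries, Female 4 lay far from the others in the level of the nuclear subunits. Its median log2 deviation over the 82 members was -0.35, against 0.04 to 0.08 in Female 1 to 3. The gap to the nearest library was 0.917 of the range of the 4, which exceeded Dixon's 95% limit for 4 samples.

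The same held for complex I (-0.38, against 0.04 to 0.08), complex IV (-0.35, against 0.03 to 0.09) and complex V (-0.36, against 0.04 to 0.08). These 4 values come from the same library and are not independent. Of the 24 groups of 4 values examined 4 exceeded the limit, and chance gives about 1 in 20. No group of male libraries exceeded it.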

How the results depend on the processing

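Members were not called in either direction under any of the 18 alternatives, in which 0 of 82 passed each time. Of 450 alternative values 441 kept their direction and side of the threshold or moved by less than the spread between libraries. Among these 441 the medians of the members and of complexes I, III, IV and V still turned sign without Male 2 (-0.0707, -0.0816, -0.0576, -0.0534 and -0.0766), and again without Female 1 and Male 2 together (-0.0466, -0.0504, -0.0302, -0.0206 and -0.0556). That of complex V also turned without Female 4 (-0.0052). The other 9 values turned sign in 5 single genes that were not called. Leaving out each library in turn, the log2 fold change of Ndufa10 ran from -0.0064 to 0.450, Ndufv1 ran from -0.0036 to 0.345, Cox7b ran from -0.0538 to 0.146, Ndufa1 ran from -0.114 to 0.0067 and Ndufb11 from -0.119 to 0.172. Without Female 1 and Male 2 together, Ndufv1 was at -0.0223, Cox7b at -0.0541 and Ndufb11 at -0.0676.

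The median log2 fold change of the members was 0.0858 with the replicate block. With the block 0 members were called, as without it, and 5 of all genes tested were called against 6 without it. The titles do not state that replicate numbers pair embryos, so the numbers were not taken to do so. Deviations of same-numbered libraries from the mean of their sex had correlations of -0.42, -0.08, -0.33 and -0.0062 over all genes. Differently numbered libraries were not set beside them, so these values cannot tell whether same-numbered libraries share a litter. The median was 0.067 with library size alone, which moved the median of all genes to -0.02, and 0.077 with the GC trend. Depth limits Cox8b and Ndufa4l2, with as few as 33 and 54 counts in a library.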
